A study of Mus musculus with 2 samples.

Results

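Genes of the cell cycle and of DNA replication were compared between embryonic mouse lungs labelled as knockout for the transcription factors Etv4 and Etv5 and wild type lungs. The set was a list of 45 genes, chosen by name, of which 43 were each read by a probe set annotated with exactly 1 gene symbol, out of 19938 such genes on the array. Each gene was represented by its probe set with the highest mean over both arrays. All 43 differed by little, at most 1.13-fold (Bub1). Mitotic genes were mostly slightly lower in the knockout (18 of 20, median difference -0.043 on the log2 scale), and 10 of 16 replication genes were lower (median -0.0085). Of bright genes, those that reached the 75th percentile of their array, 54.1% were lower (median -0.0072). Under 3 other scalings of the arrays 15 to 17 of the mitotic genes and 5 of the replication genes were lower, against 40.7% to 44.1% of bright genes. In wider lists of 53 other replication and 80 other mitotic genes both medians were -0.056, so the difference between the groups was not seen there. The G1 cyclin gene Ccnd1 and the inhibitor gene Cdkn1c were higher, by 0.13 and 0.14.

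Lungs were taken at E13.5, while the airway tree of the embryo branches. The control group was labelled wild type, and the other group was labelled Etv4;5 knockout, abbreviated both as DKO and as CKO, with no Cre line, promoter or deleted exon named. Per the series' design text, equal RNA of 3 samples was pooled within each group, and a single Affymetrix array was hybridised per pool. The data therefore hold 2 arrays without replicates. No test across samples was possible. Every difference given is the knockout value minus the wild type value on the log2 scale and compares these 2 pools only. In such whole-organ pools fewer cells of a type and less RNA per cell cannot be told apart.

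A dividing cell passes from G1 into S phase, when DNA is copied, and through G2 into mitosis, when chromosomes are parted. D-type cyclins with Cdk4 or Cdk6 inactivate the retinoblastoma protein, which frees E2F factors to switch on genes for origin licensing, nucleotide supply and the replication fork. Later, Foxm1 and B-Myb with the MuvB complex drive the genes of spindle, kinetochore and cytokinesis, and in resting cells the related DREAM complex represses them. In the branching lung, tip epithelium and the surrounding mesenchyme both proliferate, and fibroblast growth factors, which induce Etv4 and Etv5, are known mitogens of the tip.

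Both targeted genes were lower in the knockout pool. Etv4 went from 7.59 to 6.96, below the array median in each pool. Etv5, read here only on the brighter of its probe sets, went from 11.51 to 11.28 (1.17-fold). The deleted exons were not given, so whether these probe sets lie inside them is unknown. Lung identity was evident in both pools: Nkx2-1, the epithelial lung factor, was at 10.58 and 10.70, and the mesenchymal factor Tbx4 at 11.70 and 11.68, wild type first. The array medians were 7.60 and 7.58. Exactly equal values on both arrays occurred in 28.2% of 35557 probe sets. The pools differed in sex-linked transcripts, with Xist at 12.34 and 5.74. The Y-linked genes Kdm5d, Eif2s3y and Uty were at 9.05, 9.90 and 8.99 in wild type, above the array median, and higher in the knockout by 0.53, 0.53 and 0.64. None of the 43 genes lies on chromosome X or Y (0 of 43), and the part of the sex makeup in the differences was not tested. The differences given by 2 probe sets of the same gene lay a median of 0.045 apart (777 genes). Among genes that reached the 75th percentile of their array this gap was 0.035 (407 genes). Both probe sets are read on the same 2 arrays, so the gap leaves out variation between arrays and between pools. With 1 array per group, the number of arrays limits the precision.

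Promoters of replication and mitotic genes are known to carry different elements, and RefSeq promoter windows (GRCm38.p6, 250 bases before to 50 after the first listed start) were found for 30 of the 36 genes of these groups. Motifs were searched as exact letters on both strands: E2F sites as TTGGCGC or TTCCCGC or TTGGCGG or TTCCCGG, the cell cycle genes homology region (CHR, the docking site of MuvB) as TTTGAA or TTTAAA, the NF-Y site as CCAAT, and the core bound by ETS factors such as Etv4 and Etv5 as CCGGAAG. Of all 27025 genes with a window, 13.4% held an E2F motif, 27.8% a CHR, 37.9% a CCAAT and 9.12% the ETS motif. The windows of 4 genes are shown up to the base before the start, namely those with an entry whose difference was most negative and most positive in each group, with motif matches in capitals. They are Mcm5 (chr8:75109259-75109508, plus strand), Mcm7 (chr5:138171884-138172133, minus strand), Bub1 (chr2:127831860-127832109, minus strand) and Cdk1 (chr10:69352913-69353162, minus strand). Mcm7 has 2 listed starts.
Mcm5: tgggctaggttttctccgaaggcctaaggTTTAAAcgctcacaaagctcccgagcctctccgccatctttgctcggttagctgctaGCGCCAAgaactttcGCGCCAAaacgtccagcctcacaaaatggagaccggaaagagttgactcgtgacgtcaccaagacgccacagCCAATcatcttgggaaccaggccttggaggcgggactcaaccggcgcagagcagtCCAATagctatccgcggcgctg
Mcm7: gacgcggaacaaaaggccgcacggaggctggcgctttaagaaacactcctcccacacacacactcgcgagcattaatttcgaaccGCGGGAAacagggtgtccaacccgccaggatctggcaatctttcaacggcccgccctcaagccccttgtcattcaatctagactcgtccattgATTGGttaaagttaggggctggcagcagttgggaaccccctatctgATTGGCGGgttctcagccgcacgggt
Bub1: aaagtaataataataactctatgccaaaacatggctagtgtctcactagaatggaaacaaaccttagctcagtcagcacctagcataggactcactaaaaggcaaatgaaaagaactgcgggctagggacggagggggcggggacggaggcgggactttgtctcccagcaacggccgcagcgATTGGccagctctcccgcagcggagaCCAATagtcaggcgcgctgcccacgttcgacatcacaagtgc
Cdk1: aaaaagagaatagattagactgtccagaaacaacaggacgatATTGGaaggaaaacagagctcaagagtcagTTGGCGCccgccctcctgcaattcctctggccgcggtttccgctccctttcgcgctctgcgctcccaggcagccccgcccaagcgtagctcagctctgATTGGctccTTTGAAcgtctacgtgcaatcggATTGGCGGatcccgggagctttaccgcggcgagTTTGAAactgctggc
In these lines Mcm5 has a pair of GCGCCAA matches, which are the E2F motif read on the other strand, and Cdk1 has the CHR TTTGAA at -71 to -66 and again at -15 to -10. The TTGGCGG matches of Mcm7 and Cdk1 overlap a CCAAT on the other strand. Bub1 holds a pair of CCAAT matches and no E2F, CHR or ETS match in its whole window, which says only that these letters are not there.

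A CHR was found in 15 of 16 mitotic genes with a window (93.8%), in 4 of 14 replication genes (28.6%) and in 18.8% of the 4673 genes with a window whose brighter value reached the 75th percentile of its array. E2F motifs ran the other way, with 8 of 14 replication genes (57.1%), 4 of 16 mitotic genes (25%) and 25.9% of the bright genes. CCAAT was held by 15 of 16 mitotic and 9 of 14 replication genes (bright genes 39.4%), and the ETS motif by 4 of 16 and 1 of 14 (bright genes 20.5%). In the wider lists a CHR was found in 38 of 66 other mitotic genes (57.6%) and 9 of 44 other replication genes (20.5%). There the ETS motif was held by 14 of 66 mitotic (21.2%) and 17 of 44 replication genes (38.6%). E2F motifs were held by 33.3% and 63.6% of these genes, mitotic first, and CCAAT by 62.1% and 54.5%. The 4 mitotic genes with the ETS motif (Aurka, Cdc20, Cenpf and Mki67) had a median difference of -0.038 and the 12 others -0.050, a difference given no test. In the wider lists the medians with and without the ETS motif were -0.019 and -0.064 for mitotic and -0.022 and -0.040 for replication genes. For bright genes they were -0.0038 and -0.0085. Among bright genes the median difference was -0.0085 with a CHR and -0.0067 without. With and without a CHR it was -0.064 and -0.047 for other mitotic genes, and -0.012 and -0.040 for other replication genes. These differences were given no test either.

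**Figure D1:**
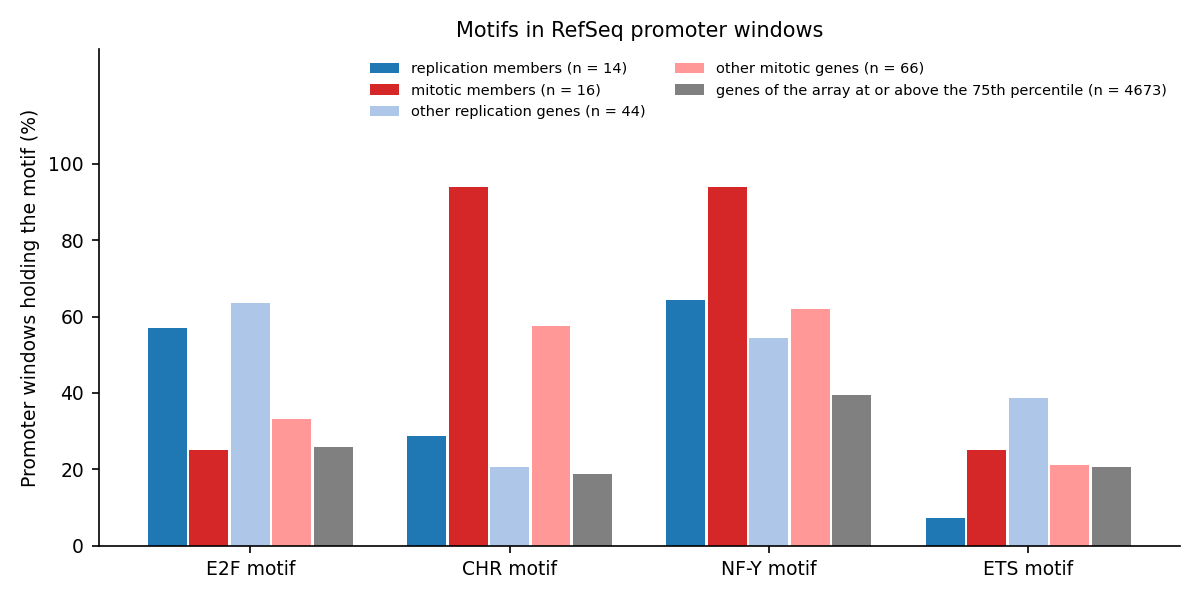
Share of promoter windows (%) that hold each motif, for replication and mitotic genes, other genes of both kinds, and all genes at or above the 75th percentile of their array; n counts genes with a RefSeq window. The CHR bar of the mitotic genes reaches 93.8%, against 57.6% for the other mitotic genes, 28.6% for the replication genes and 18.8% for bright genes.

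Of the 43 genes, 31 were lower, 7 higher and 5 exactly equal, with a median difference of -0.017. Over all 19938 genes the median was 0, and 33.2% were lower and 33.4% higher. Bright genes are the closer comparison, since 42 of the 43 reached the 75th percentile and Cdc6 lay just under it: of 5751 bright genes 54.1% were lower and 19.3% higher, against 72.1% and 16.3% of the 43. Differences of at least 0.1 in size, a limit used only for counting, were found in 4 genes that were lower (9.3%) and 2 that were higher (4.7%). The background for such a difference was 9.98% lower and 13.4% higher over all genes, and 12.7% lower and 3.43% higher among bright genes. The shares of the 43 past that limit were thus near those of bright genes, and 0 of the 43 reached a size of 0.2. The plot of the differences by gene shows how they were spread.

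**Figure D2:**
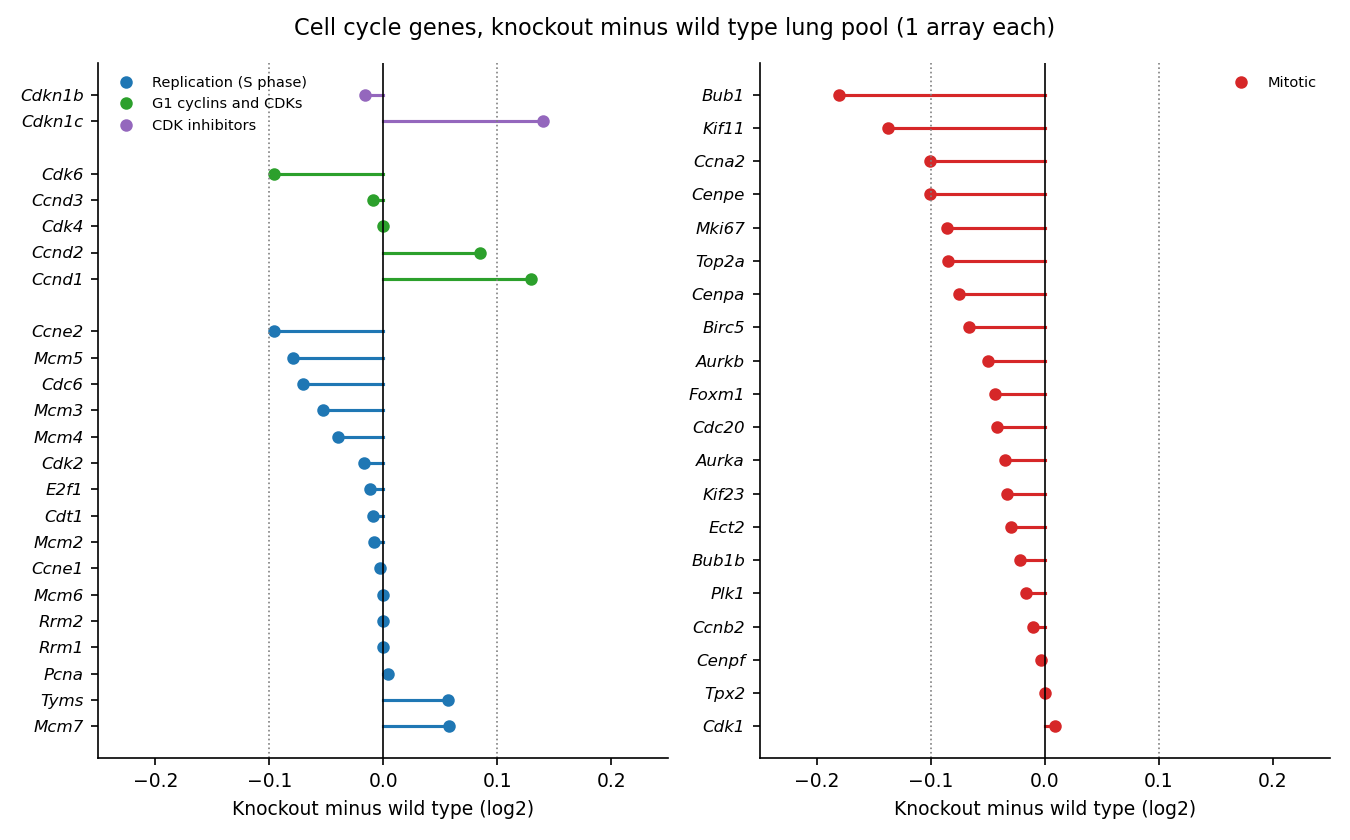
Knockout minus wild type difference (log2, horizontal axis) of each of the 43 genes, 1 point per gene and 1 array per group; dotted lines mark -0.1 and 0.1. On the right, 18 of 20 mitotic genes lie left of 0; on the left, replication genes lie between -0.096 and 0.058, and Ccnd1 and Cdkn1c pass 0.1.

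Replication genes went both ways by small amounts. The 6 subunits of the MCM helicase, which unwinds DNA at the fork and is assembled as a ring of all of them, ranged from -0.080 to 0.058. Mcm5, whose E2F motifs are shown above, was at 11.26 in wild type and 11.18 in the knockout, a difference of -0.080. Mcm3 went from 10.58 to 10.52 (-0.053) and Mcm4 from 11.27 to 11.23 (-0.040). Mcm7 was at 11.54 and 11.59, a difference of 0.058 in the other direction, and its promoter holds E2F motifs too. Mcm2 (11.24 in both pools, -0.0081) and Mcm6 (10.93, exactly equal) hardly differed. The helicase subunits thus lay on both sides of 0.

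The licensing factors load that helicase onto origins. Cdc6 was at 9.16 and 9.09, a difference of -0.070, and its partner Cdt1 at 10.04 and 10.03 (-0.0088). Ccne2, which encodes cyclin E2, the partner of Cdk2 at the entry to S phase, had the largest difference of the group, -0.096, from 9.47 to 9.37. Its paralogue Ccne1 was at 10.73 in both pools (-0.0029), and the kinase gene Cdk2 at 10.61 and 10.60 (-0.017). E2f1, the activating E2F factor, was at 9.86 and 9.84 (-0.012). Of these entry genes only Ccne2 and Cdc6 differed by more than 0.045.

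Enzymes of nucleotide supply and the sliding clamp were level or higher. Tyms, which encodes thymidylate synthase, was at 11.14 and 11.20, a difference of 0.057. Rrm1 and Rrm2, the large and small subunits of ribonucleotide reductase, were exactly equal in both pools, at 11.89 and 10.95. Pcna, the clamp that holds polymerases on DNA, was at 12.81 in both (0.0039). Its second probe set carries identical values and adds no information. Over all 16 replication genes 10 were lower, 3 higher and 3 equal, and 0 reached a size of 0.1.

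D-type cyclins and their kinases differed among themselves. Ccnd1 was at 12.01 and 12.14, a difference of 0.13 (1.09-fold). Ccnd2 was at 12.55 and 12.63 (0.085), and Ccnd3 at 10.93 and 10.92 (-0.0090). Of the partner kinases Cdk6 was lower, at 11.12 and 11.02 (-0.096), and Cdk4 was exactly equal at 13.43. Among the CDK inhibitors Cdkn1c, which encodes p57 and restrains proliferation in many embryonic tissues, was at 11.23 and 11.37, a difference of 0.14 (1.10-fold) and the largest positive one of the 43. Cdkn1b, which encodes p27, was at 10.14 and 10.12 (-0.016), and its dimmer probe set was equal in both pools at 7.60. Cdkn1a was read by 1 probe set annotated with several symbols and was not analysed here. Under each of 4 scalings Ccnd1 stayed between 0.13 and 0.15 and Cdkn1c between 0.14 and 0.16.

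Mitotic genes were lower almost throughout, by small amounts. Bub1, a kinase of the spindle checkpoint, had the largest difference, -0.18, from 11.52 to 11.34 (1.13-fold). Its partner Bub1b, which encodes BubR1, differed far less, with 10.92 and 10.89 (-0.022). Kif11, the motor that pushes spindle poles apart, went from 11.40 to 11.26 (-0.14). Kif23, a motor of the central spindle, was at 11.10 and 11.07 (-0.034). Bub1 and Kif11 were the only genes of the 43 that were lower by at least 0.1 under all 4 scalings; Bub1 lay between -0.18 and -0.16 and Kif11 between -0.14 and -0.12.

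Kinetochore and chromosome genes followed. Cenpe, a kinetochore motor, went from 10.28 to 10.18 (-0.10), and Cenpa, the centromeric histone H3 variant, from 11.46 to 11.39 (-0.075). Cenpf, a large kinetochore protein gene, was at 10.08 in both pools (-0.0034). Top2a, the topoisomerase that untangles sister chromatids, was at 11.75 and 11.66 (-0.085). A second, dim Top2a probe set below the array medians gave 5.94 and 6.10, a difference of 0.16 in the other direction. Mki67, which encodes the proliferation antigen Ki-67 that coats mitotic chromosomes, went from 12.32 to 12.23 (-0.086). Birc5, which encodes survivin, went from 9.38 to 9.31 (-0.066), and Aurkb, the kinase it serves, from 12.17 to 12.12 (-0.050).

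Cyclins and kinases of mitotic entry spread from -0.10 to 0.0086. Ccna2, which encodes cyclin A2 and acts in both S phase and G2, went from 12.27 to 12.17 (-0.10). Ccnb2, a B-type cyclin gene, was at 12.35 and 12.34 (-0.011). Cdk1, the kinase these cyclins activate, was at 12.16 and 12.17 and was the only mitotic gene of the 20 that was higher (0.0086); its promoter carries a pair of CHR matches. Foxm1, the transcription factor that drives many of these genes, was at 10.61 and 10.56 (-0.044). Plk1, Aurka and Cdc20, a pair of kinases and the activator of the anaphase-promoting complex, differed by -0.016, -0.035 and -0.042. Ect2, which triggers the cleavage furrow, differed by -0.030, and Tpx2, a spindle assembly factor, was exactly equal at 10.65. Ccnb1, the other B-type cyclin gene on the list, had no probe set annotated with its symbol and was not analysed here.

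The comparison of the groups gave a median of -0.0085 for the 16 replication genes and -0.043 for the 20 mitotic genes, which is a gap of 0.034 between medians. Genes are not replicates, so this gap was given no test, and whether it exceeds the variation between such pools is unknown. Bright genes as a whole had a median of -0.0072, next to that of the replication genes. The plot of cumulative shares shows the mitotic curve to the left of both others between about -0.1 and 0.

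**Figure D3:**
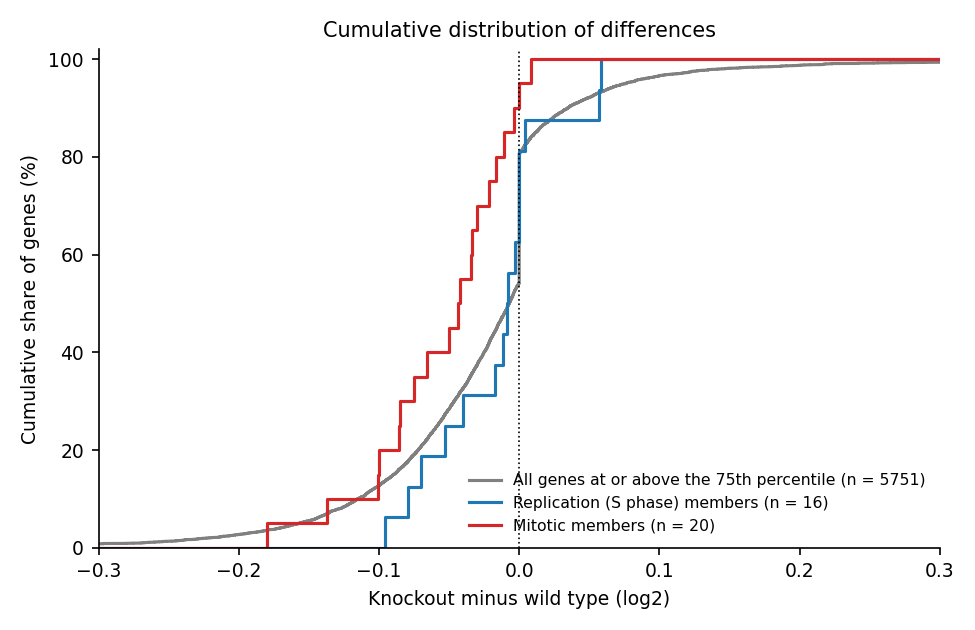
Cumulative share of genes (%) against the knockout minus wild type difference (log2) for 16 replication genes, 20 mitotic genes and 5751 bright genes. At 0, 90.0% of mitotic, 62.5% of replication and 54.1% of bright genes were lower, and the steps at 0 are genes with equal values.

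The signs of such small differences depended on how the arrays were scaled. With equal array medians, quantile normalization or loess, the replication median was 0.0090, 0.0098 and 0.011, with 5 genes lower and 11, 10 and 11 higher. The mitotic median under the same scalings was -0.025, -0.016 and -0.021, with 15, 16 and 17 of 20 lower. Bright genes moved too, to medians of 0.010, 0.013 and 0.010 with 44.1%, 40.7% and 43.1% lower and 55.9%, 59.0% and 56.9% higher. Of the 43 genes, 21, 23 and 23 were lower and 22, 19 and 20 higher. The gap between the group medians lay between 0.025 and 0.035 over every setting tried, and the gap between list means was 0.039. In all 4 scalings 15 of 20 mitotic genes and 5 of 16 replication genes were lower. The share of bright genes lower in all 4 scalings was not counted.

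**Figure D4:**
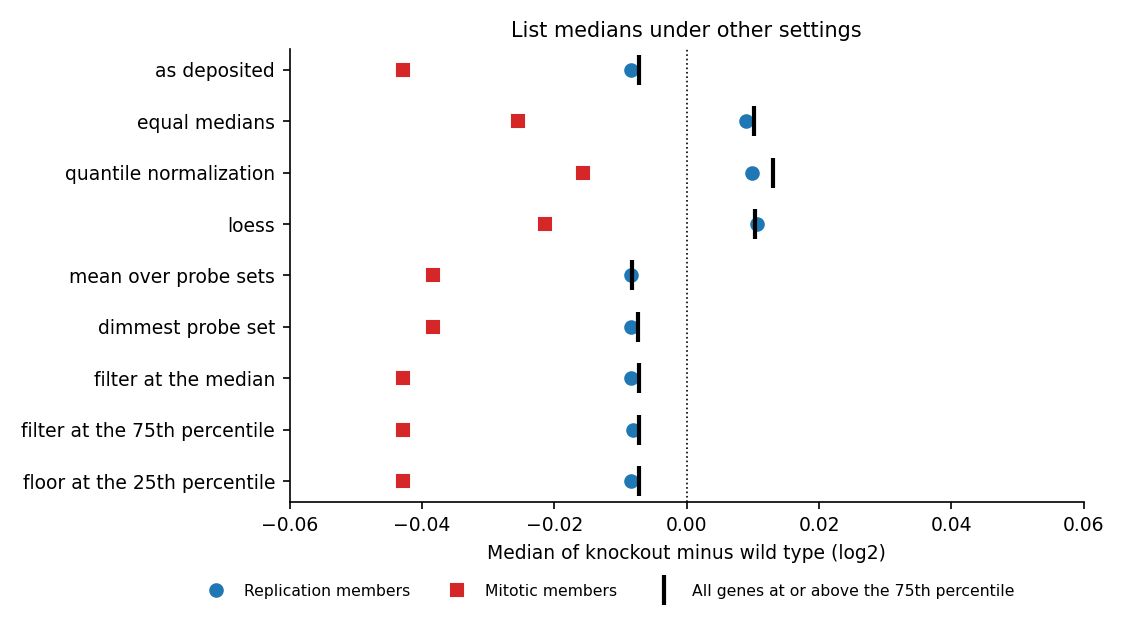
Median difference (log2, horizontal axis) of the replication and mitotic genes and of all genes at or above the 75th percentile, as deposited and under 8 other settings. The mitotic squares stay left of 0, while the replication circles follow the black marks of the bright genes across 0.

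Other genes of the same processes were taken from 7 further lists with 133 genes on the array. They were lower in 100, higher in 6 and equal in 27, with a median of -0.056. Among them 29 were lower by at least 0.1 (21.8%, against 12.7% of bright genes) and 0 higher by as much (3.43% of bright genes). With equal medians, quantile normalization and loess the 29 became 22, 15 and 21, against 9.60%, 8.50% and 9.09% of bright genes, and the higher genes of any size numbered 45, 49 and 45. Unlike in the 43, replication and mitotic genes had the same median here: it was -0.056 for both 53 other replication genes and 80 other mitotic genes. Lower and higher genes numbered 38 and 4 in the replication lists and 62 and 2 in the mitotic lists. With equal medians, quantile normalization and loess these medians were -0.039, -0.028 and -0.034 for replication and -0.039, -0.032 and -0.035 for mitosis, with 34, 32 and 35 of 53 and 54, 51 and 53 of 80 lower. The gap seen between the named groups was therefore not present in the wider lists.

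Origin and helicase genes were lower in 15 of 19 with 0 higher (median -0.056). Over the 13 bright ones the median was -0.022, with 11 lower and 1 lower by at least 0.1. Cdc7, the kinase that fires licensed origins, was at 8.63 and 8.37 and had the largest difference of these lists, -0.26, and Orc1, a subunit of the origin recognition complex, was at 8.56 and 8.44 (-0.13). Polymerase and fork genes were lower in 21 of 27 and higher in 2 (median -0.067). Of them 8 were lower by at least 0.1 (29.6%, against 12.7% of bright genes). With equal medians, quantile normalization and loess the 8 became 6, 3 and 5, against 9.6%, 8.5% and 9.09% of bright genes. The polymerase alpha and primase subunit genes Pola2 and Prim2 both differed by -0.14. The 7 nucleotide supply genes had a median of 0, with 2 lower and 2 higher; 1 passed 0.1 in size, Dck, the deoxycytidine kinase gene, at -0.13. Under those scalings 7, 8 and 7 of the 19 origin and helicase genes and 6, 7 and 6 of the 27 polymerase and fork genes were higher. The medians of both lists stayed below 0, and that of nucleotide supply lay above 0, between 0.017 and 0.026.

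Spindle and cytokinesis genes were lower in 19 of 22 with 0 higher, with a median of -0.084, or -0.067 over the 18 bright ones. Kif14, a motor of the midbody, was at 9.28 and 9.12 (-0.16), and Hmmr, a spindle protein gene, at 9.13 and 8.98 (-0.14). Kinetochore and checkpoint genes were lower in 17 of 22 and higher in 1 (median -0.049), led by the kinase genes Nek2 (-0.12) and Ttk (-0.12). Genes of mitotic entry and exit were lower in 15 of 20 and higher in 1 (median -0.062). Fbxo5, the inhibitor of the anaphase-promoting complex also called Emi1, went from 9.70 to 9.51 (-0.20), and Mastl, the kinase that holds off a mitotic phosphatase, from 9.73 to 9.58 (-0.16). Condensin and cohesion genes were lower in 11 of 16 with 0 higher (median -0.034), led by the cohesin gene Smc3 (-0.23) and the condensin gene Ncaph (-0.18). The absence of higher genes rests on exactly equal values in the deposited scaling: with equal medians, quantile normalization and loess 5, 8 and 7 spindle genes, 8, 8 and 8 kinetochore genes, 6, 5 and 5 entry and exit genes and 7, 7 and 7 condensin and cohesion genes were higher. All 4 medians stayed below 0 under these scalings.

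Regulators upstream went both ways. In the list of E2F, retinoblastoma and DREAM genes 13 of 20 were lower and 6 higher; the median was -0.018 and lay between -0.0057 and 0.00036 under the other scalings. The DREAM subunit gene Lin52 differed by -0.18 and the retinoblastoma gene Rb1 by -0.11, whereas another subunit gene, Lin37, and E2f2 were higher by 0.12 and 0.10. Of 12 other inhibitors and quiescence genes 5 were lower and 5 higher (median 0). Gas6, a growth arrest gene that encodes a receptor tyrosine kinase ligand, and Cdkn2c, which encodes p18, differed by -0.18 and -0.13, and the antiproliferative gene Btg2 was higher by 0.18.

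**Figure D5:**
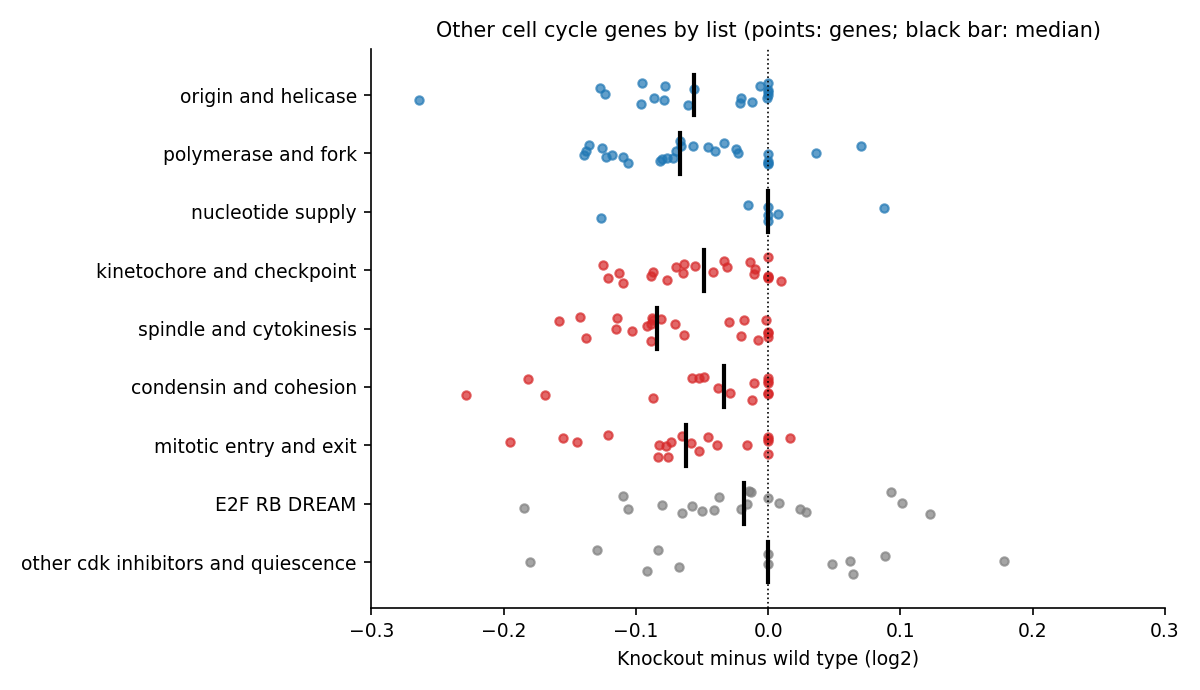
Knockout minus wild type difference (log2, horizontal axis) of genes in 9 further cell cycle lists, 1 point per gene, with list medians as black bars; blue marks replication, red mitosis and grey regulators. Points of the origin, spindle and condensin lists lie at or below 0 in the deposited scaling, and the spindle median is -0.084.

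Markers of several cell types in the organ differed between the pools by more than the cell cycle genes did. All 10 smooth muscle markers were matched, with 9 lower and 0 higher (median -0.22), led by Synpo2 (-0.49), Myocd (-0.39) and Cnn1 (-0.31), and their summed linear value was 19122 in wild type and 17269 in the knockout (ratio 0.903). Of 13 mesenchyme markers 11 were lower and 1 higher (median -0.097, sums 27686 and 25156, ratio 0.909), with Fgf10 at 0.40, Foxf1 at -0.40 and Wnt2 at -0.31. Of 18 epithelial markers 12 were higher and 4 lower (median 0.086, sums 22652 and 23227, ratio 1.03), with Sftpc at -1.12, Krt18 at 0.47 and Krt19 at 0.45. The 8 mesothelial markers had a median of 0.089 (5 higher, 2 lower, ratio 1.06). Krt19, counted on the epithelial list too, had the largest of these differences (0.45), and the ratio without it was not computed. Endothelial markers were lower in 8 of 12 and higher in 2 (median -0.014, ratio 0.986), and leukocyte markers lower in 7 of 12 with 0 higher (median -0.043, ratio 0.945). With equal medians, quantile normalization and loess 7, 6 and 6 endothelial and 5, 4 and 1 leukocyte markers were higher.

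Of 15 erythroid markers 9 were matched, with 5 lower and 1 higher (median -0.018, sums 15382 and 13263, ratio 0.862) and Hbb-bh1, which was dimmer than the array medians, at -0.46. No marker was at 0, and the lowest marker value was 6.06. The medians of the cell type lists ran from -0.22 (smooth muscle) to 0.089 (mesothelium). The mitotic median of -0.043 lay within that range, next to that of the leukocyte list (-0.043) in the deposited scaling. With equal medians, quantile normalization and loess the mitotic median was -0.025, -0.016 and -0.021. The leukocyte median was -0.025, -0.039 and -0.052 there. A relation of the mitotic median to the cell makeup of the pools was not tested. Of the 43 genes 4 share a chromosome with Etv4, namely Top2a, Cdc6, Birc5 and Aurkb, which lie 111, 114, 240 and 680 array genes from it in RefSeq order. Their differences were -0.085, -0.070, -0.066 and -0.050, and the median of the 43 was -0.017. Top2a, Birc5 and Aurkb belong to the mitotic genes, whose median was -0.043, and Cdc6 to the replication genes. A relation of the differences to position was not tested. Mcm4 (-0.040) shares a chromosome with Etv5. Of the other replication and mitotic genes 5, named here for their position, lie on the X chromosome (Pola1, Cenpi, Kif4, Stag2 and Smc1a). Their differences were -0.077, -0.088, -0.088, -0.052 and -0.048. All 5 were thus lower, as were 100 of the 133 (75.2%, median -0.056), and the part of the sex makeup in this was not tested.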

How the data were processed

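Biotin-labelled RNA of whole embryonic lung was read on Affymetrix arrays, per the labels' protocols, with 3 samples pooled in each group, per the series' design text. The authors' deposited values, 1 per probe set and array, were taken as log2 from their range of 2.69 to 14.4; the log base, summary method and normalization were not given in the sources used here. Values were used as deposited, with no floor or offset.

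Gene symbols came from the platform annotation, in which 21789 of 35557 had 1 symbol, 1621 several and 12147 none. A gene was bright when its brighter value reached the 75th percentile of its array. Promoter windows and chromosomes came from RefSeq (GRCm38.p6). With 1 array per group, no test, SD or p-value was computed.

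The genes and lists were chosen with earlier results of these data known. Of each pathway list, up to 2 genes per direction of at least 0.1 in size were named; of cell type lists, up to 3 of at least 0.3. Promoters were to be shown for the extreme genes of each group; Ccne2 had no entry, so Mcm5 was shown. Alternatives were 3 scalings, namely loess (span 0.3), quantile normalization and equal medians, other probe set choices, filters, a floor at the 25th percentile, other thresholds and list means. Steps were tested on simulated data. Python 3.11.15, numpy 2.4.6, pandas 2.3.3, statsmodels 0.14.6 and matplotlib 3.10.9 were used.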

Additional observations from a re-analysis of the deposited data

How the results depend on the processing

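No paired analysis was possible because each group had 1 array, and no array could be left out. The 4 genes lower by at least 0.1 (9.3% of the 43), all of them mitotic, were 2 with equal medians, quantile normalization or loess. Of bright genes 12.7% were lower by as much as deposited, and 9.6%, 8.5% and 9.09% under these scalings. At a threshold of 0.05 there were 13 lower genes, of them 8 mitotic and 4 of the replication group, and 5 higher genes. The share of bright genes past 0.05 was not counted, so these numbers have no background. At 0.2 and at 2-fold there were 0 lower and 0 higher, which follows from the threshold. Over the planned settings the mitotic median lay between -0.043 and -0.016 and the replication median between -0.0085 and 0.011. The median of all 43 genes lay between -0.017 and 0.00021. The last 2 medians thus changed sign with the scaling. As list means, the mitotic genes, the replication genes and all 43 genes gave -0.055, -0.017 and -0.027. Without Cdk2, E2f1, Ccna2, Top2a and Mki67 the gap was 0.029. By probe set choice, Top2a changed sign, to 0.037 as a mean over its probe sets and 0.16 on the dimmer one. Chosen after the data were seen were the settings for the other lists, given beside those lists, and the promoter window: in the 250 bases before the start alone, 68.8% of mitotic genes held a CHR (bright genes 17.0%). Of the 43 genes 42 were bright; background signals were not analysed here, and 1 array per group limits every value.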
